A study of Mus musculus with 6 samples.

Results

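The 35 genes described here mark Kupffer cells, which are the macrophages resident in liver, or macrophages and other white blood cells more widely. They were chosen by gene name from a table of 21700 genes, which holds all 35. The table gives RNA levels in biliary epithelial cells, the cells that line the bile ducts, sorted from mouse liver. All samples came from wild-type female C57BL/6 mice, 3 of them non-pregnant and 3 pregnant at dpc8 (8 days post coitum), and no age is given in the labels. Per the labels' protocols, the liver was perfused and digested, hepatocytes were spun out, and the non-parenchymal cells left were stained, with an antibody against Fc receptors added, and sorted by flow cytometry. Which antibodies set the sorting gate is not stated there.

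Kupffer cells sit inside the liver sinusoids, where they take up particles, dying blood cells and microbes through scavenger, complement and Fc receptors. They keep themselves through the receptor Csf1r, which binds the growth factors Csf1 and Il34, and through the transcription factor PU.1, the product of Spi1. They make most of the complement component C1q found in the liver, and the lectin Clec4f is found on almost no other cell in mice. In bulk libraries such as these, a change in the number of macrophages and a change in the RNA each one holds cannot be told apart.

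The libraries held 25047887 to 35083751 recovered fragments. Levels are FPKM, which counts fragments per kilobase of exon relative to library depth, and pregnant and non-pregnant libraries are numbered 1 to 3 as in the sample titles. The sorted cells carried their label: the 10 biliary markers examined summed to 7048, 7547 and 6120 FPKM in the non-pregnant and to 8699, 8169 and 8331 FPKM in the pregnant libraries, with Spp1, a secreted protein of bile duct cells, at 3941 to 5941 FPKM and Krt19, a bile duct keratin, at 220.1 to 386 FPKM. These sums were higher in every pregnant library. Groups were separate and higher in pregnancy in 5 of the 10 markers, against 9.90% of the 11412 genes tested. At an unadjusted p under 0.05 in limma, 3 (Cftr, Krt19 and Krt8) were higher, against 7.09% of those genes, and 0 were called. The part of the biliary markers in the macrophage values was not tested. Whether the 3 samples of a group are 3 animals is not stated in the labels. A p-value therefore reflects the spread among these samples alone, and that spread may be technical.

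Most of the 35 macrophage transcripts were low in non-pregnant libraries and several times higher in pregnant ones. Between group means, 24 of the 35 were more than 5-fold higher in the pregnant libraries, and so were 14 of the 19 with a mean of at least 1 FPKM. Among them were the Kupffer cell genes Cd5l and Clec4f, the 3 genes of C1q and the protease gene Ctss. Of all genes with that mean, 0.140% passed the ratio, and all but 2 of those 16, A1bg and Wfdc17, were among the 35. The 35 were chosen with earlier results of these data known, so this overlap may be partly built in and is a description. It also depends on the mean required: under 1 FPKM, genes outside the 35 such as Siglec1, C6, Pilra and Dock2 passed the ratio too. The 24 of 35 include genes under that mean and have no share of all genes beside them. In 28 of the 35, every pregnant library was above every non-pregnant one, against 10.7% of the 17404 genes above 0 in at least 1 library. The other 7, Msr1, Csf1r, Cd68, Ms4a7, Cybb, Lcp1 and Hcls1, overlapped between groups. None of the 35 had a lower mean in pregnancy, and in 0 of the 35 were all pregnant libraries below the non-pregnant ones, where 9.30% of genes were. The median difference over the 35 was 0.88 in log2(FPKM + 1), a scale that understates the change of low genes, beside a median of -0.00 over all genes above 0 in at least 1 library.

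Testing used limma, two-sided, for every gene whose mean over all libraries reached 1 FPKM, with p-values adjusted by the Benjamini-Hochberg method over all 11412 tested genes. Of the 35, 19 were tested and 16 were under that mean. Of these 19, 14 had a non-pregnant mean under 1 FPKM and entered the test through their pregnant values, so counts among the 19 are a description. Cd5l, C1qa, C1qc, Ctss and Fcna rose in pregnancy at an adjusted p under 0.05 in limma, which is 5 of 19, where 0.0613% of all tested genes were called higher. No member was called lower, where 0.0263% of tested genes were. At an unadjusted p under 0.05, limma had 16 of the 19 higher and 0 lower, against 7.09% and 6.30% of all tested genes. Those 16 were also the tested members with separate groups, which 9.90% of all tested genes had in that direction. The 5 calls rested on every library but 2: with non-pregnant library 1, non-pregnant library 3, pregnant library 1 or pregnant library 2 left out, 0 of the 19 were called and 16 had an unadjusted p under 0.05. With non-pregnant library 2 left out 12 were called, and with pregnant library 3 left out 11.

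**Figure D1:**
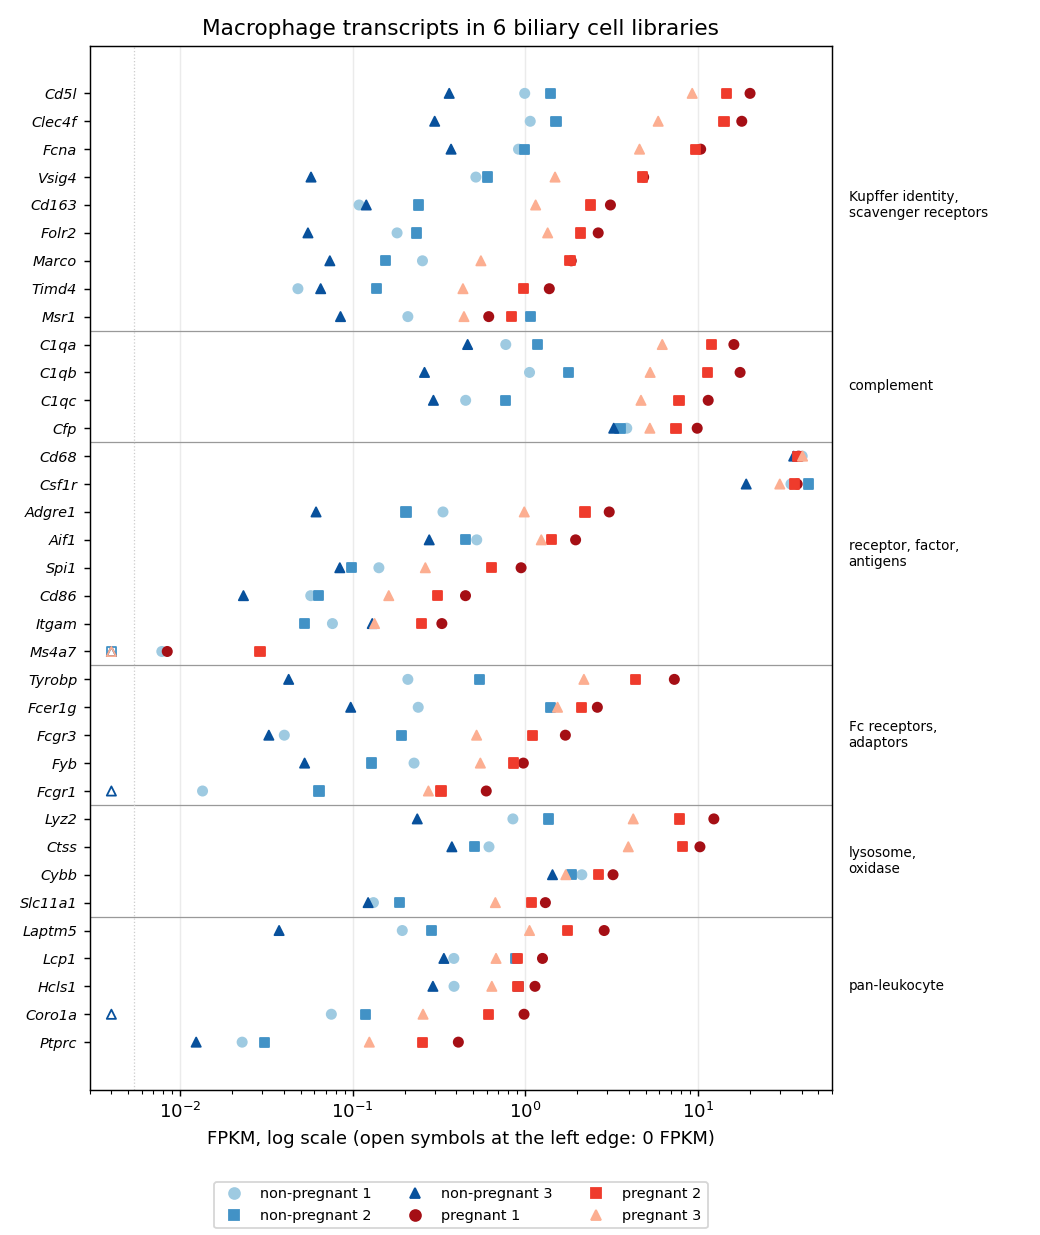
Level of each of the 35 macrophage transcripts in FPKM on a log axis, in rows grouped by role, with 1 symbol per library (blue for the 3 non-pregnant, red for the 3 pregnant) and open symbols at the left edge for 0 FPKM. In most rows the 3 red symbols lie to the right of the 3 blue ones with pregnant library 1 at the far right, while Cd68 and Csf1r show all 6 libraries between 19.1 and 43.7 FPKM.

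The stretches just upstream of 4 of the called genes are shown because PU.1 and the Maf factors are the regulators most often tied to macrophage genes. The sequences are from RefSeq (GRCm38.p6), 5′ to 3′ on the gene's strand, trimmed to the bases outside the annotated gene. Cd5l is at chr3:87357631-87357880 (plus strand), C1qc at chr4:136893066-136893164 (minus strand), Ctss at chr3:95526536-95526785 (plus strand) and Fcna at chr2:25628031-25628224 (minus strand). Capitals mark the letters GAGGAA, a core of the PU.1 motif, and TGCTGA, a part of the Maf motif, on either strand, so that their reverse complements TTCCTC and TCAGCA are in capitals too.
Cd5l: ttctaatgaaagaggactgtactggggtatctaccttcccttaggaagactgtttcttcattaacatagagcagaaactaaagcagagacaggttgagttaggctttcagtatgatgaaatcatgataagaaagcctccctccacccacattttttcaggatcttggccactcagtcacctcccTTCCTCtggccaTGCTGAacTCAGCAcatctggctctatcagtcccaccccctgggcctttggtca
C1qc: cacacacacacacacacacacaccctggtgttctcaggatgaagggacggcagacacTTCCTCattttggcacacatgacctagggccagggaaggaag
Ctss: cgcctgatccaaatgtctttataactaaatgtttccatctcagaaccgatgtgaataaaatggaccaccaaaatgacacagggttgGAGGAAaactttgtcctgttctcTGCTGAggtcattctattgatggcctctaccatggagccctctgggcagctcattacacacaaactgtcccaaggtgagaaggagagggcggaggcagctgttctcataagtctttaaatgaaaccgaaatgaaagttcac
Fcna: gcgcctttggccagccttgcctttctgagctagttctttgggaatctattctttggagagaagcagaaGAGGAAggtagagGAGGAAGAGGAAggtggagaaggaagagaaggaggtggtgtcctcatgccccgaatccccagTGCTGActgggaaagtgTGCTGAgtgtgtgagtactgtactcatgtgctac
The stretch of Cd5l holds 1 PU.1 core and 2 Maf letters, that of C1qc 1 PU.1 core, that of Ctss 1 of each, and that of Fcna 3 PU.1 cores, a pair of them back to back, and 2 Maf letters. In all, 28 of the 35 genes matched the RefSeq promoter table, with 34 windows of 250 bases before a start. GAGGAA was in 17 of the 34 windows (50.0%), against 23.3% of all 32851 promoters of that length. TGCTGA was in 14 of the 34 (41.2%), against 16.1%. Windows of the same gene may share bases, and a match of letters is a description, not a binding site.

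Among the Kupffer cell identity genes and scavenger receptors, Cd5l and Fcna rose, 4 others were tested without being called, and 3 were too low to test. Cd5l encodes a secreted protein of tissue macrophages that binds lipids and microbes. Its level was 0.994, 1.40 and 0.363 FPKM in the non-pregnant libraries 1 to 3 and 20.1, 14.7 and 9.29 FPKM in the pregnant libraries 1 to 3. The lowest pregnant library was several times the highest non-pregnant one. The means were 0.918 ± 0.521 and 14.7 ± 5.40 FPKM (SD, n = 3 each), a ratio of 16.0. In limma the log2 difference was 3.01 ± 0.285 (SE), with an adjusted p of 0.0357. Summed over libraries, 170 fragments in the non-pregnant and 2494 in the pregnant libraries lay behind it, a depth-scaled ratio of 16.7 with a 95% counting interval of 14.3 to 19.6. The gene lies on chromosome 3 from 87357881 to 87371073 (mm10).

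Fcna encodes ficolin A, a lectin that starts the complement cascade on microbial sugars. It stood at 0.915, 0.987 and 0.372 FPKM in the non-pregnant libraries and at 10.4, 9.68 and 4.60 FPKM in the pregnant ones. Pregnant libraries 1 and 2 were close together and library 3 was well under them, still above all non-pregnant values. The log2 difference in limma was 2.34 ± 0.275 (SE), with an adjusted p of 0.0393 and a ratio of means of 10.8. Fcna is on chromosome 2 from 25624666 to 25628030.

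Clec4f, the galactose-binding lectin that defines mouse Kupffer cells, was at 1.07, 1.51 and 0.299 FPKM without pregnancy and at 18, 14.2 and 5.90 FPKM in pregnancy. It had the second largest difference of the 19, 2.73 ± 0.385 (SE) in log2(FPKM + 1), but its spread was wider and the adjusted p in limma was 0.0854. Folr2, the folate receptor of resident macrophages, was at 0.157 ± 0.0924 and 2.03 ± 0.648 FPKM (SD, n = 3 each), with an adjusted p of 0.0531 in limma. Cd163, the scavenger receptor for haemoglobin bound to haptoglobin, went with a ratio of means of 14.2 and an adjusted limma p of 0.124. Vsig4, the complement receptor of Kupffer cells that clears opsonised microbes, had a ratio of 9.45 and an adjusted limma p of 0.225. Each of these 4 had separate groups. The exons of Folr2 share 63.1% of their bases with an antisense gene, and as the strand setting of the counting is not given in the sources used here, its value is uncertain.

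The 3 untested scavenger receptors split. Marco, a class A scavenger receptor of Kupffer and marginal zone macrophages, was at 0.161 ± 0.0902 and 1.41 ± 0.739 FPKM. Timd4, the receptor for phosphatidylserine on dying cells and a mark of macrophages seeded before birth, was at 0.0835 ± 0.0471 and 0.934 ± 0.475 FPKM (SD, n = 3 each). Both had separate groups. Msr1, the other class A scavenger receptor, did not: it was at 0.209, 1.07 and 0.0851 FPKM in the non-pregnant libraries and at 0.615, 0.837 and 0.442 FPKM in the pregnant ones, with its highest value in non-pregnant library 2.

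The complement genes were the group with the highest median, 2.53 in log2(FPKM + 1), and all 4 had separate groups. That scale understates the change of low genes. The Fc receptor and adaptor genes had a median of 0.92 but held the largest ratio of means, 17.4 for Tyrobp. C1q, the molecule that opens the classical complement pathway by binding antibody or dying cells, is built from 3 chains whose genes C1qa, C1qb and C1qc lie side by side on chromosome 4. C1qa was at 0.772, 1.18 and 0.464 FPKM in the non-pregnant and at 16.2, 12 and 6.23 FPKM in the pregnant libraries. The C1qc levels were 0.452, 0.771 and 0.294 FPKM, and then 11.5, 7.78 and 4.69 FPKM. For C1qb they were 1.06, 1.79 and 0.261 FPKM, and then 17.6, 11.4 and 5.30 FPKM. The 3 chains thus ranked the 6 libraries alike, from pregnant library 1 down to non-pregnant library 3. In limma the log2 difference was 2.72 ± 0.299 (SE) for C1qa and 2.52 ± 0.267 for C1qc, both with an adjusted p of 0.0357. C1qb had a similar difference, 2.55 ± 0.412 (SE), but an adjusted limma p of 0.124.

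Within the pregnant libraries, C1qc and C1qb were each set against C1qa. C1qc over C1qa, both per length, was 0.714 (95% counting interval 0.631 to 0.809) in pregnant library 1, 0.646 (0.563 to 0.741) in library 2 and 0.752 (0.613 to 0.925) in library 3. C1qb over C1qa was 1.09 (0.955 to 1.24), 0.946 (0.819 to 1.09) and 0.851 (0.676 to 1.07) in the same order. The intervals of each ratio overlapped among the 3 pregnant libraries, which does not establish constant proportions. In pregnant library 3 over 1, C1qb was at 0.302 (0.249 to 0.364) and C1qc at 0.406 (0.347 to 0.473). C1qb over C1qc was not computed. In the non-pregnant libraries 17 to 37 fragments of C1qa gave C1qc over C1qa ratios of 0.585 to 0.655. C1qb over C1qa varied more there, at 1.37 (0.781 to 2.45), 1.52 (0.994 to 2.37) and 0.562 (0.23 to 1.3), with intervals that overlapped. The fourth complement gene, Cfp, encodes properdin, which stabilises the alternative pathway convertase. It began higher, at 3.88, 3.54 and 3.26 FPKM, and was at 9.93, 7.49 and 5.28 FPKM in pregnancy. Its ratio of means was 2.13, and its adjusted p in limma was 0.239.

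The general macrophage genes, which include the growth factor receptor and the lineage factor, held the members with the least difference. Adgre1, the adhesion receptor known as F4/80, was at 0.334, 0.204 and 0.0614 FPKM in the non-pregnant and at 3.07, 2.22 and 0.988 FPKM in the pregnant libraries. Its groups were separate, with a ratio of 10.5, a log2 difference of 1.31 ± 0.248 (SE) and an adjusted p of 0.205 in limma. Csf1r and Cd68 were the highest of the 35 in every library and showed no such step.

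Csf1r stood at 34.7, 43.7 and 19.1 FPKM without pregnancy and at 37.7, 36.4 and 29.9 FPKM with it. The highest and the lowest of the 6 were both non-pregnant. The limma difference was 0.16 ± 0.265 (SE), with a 95% interval of -0.45 to 0.77 and an adjusted p of 0.783, and it was -0.17 without non-pregnant library 3. Cd68, a lysosomal membrane glycoprotein, was at 40.3, 38.0 and 36.0 and then 38.4, 37.8 and 40.5 FPKM. Its difference in limma was 0.03 ± 0.0757 (SE), with a 95% interval of -0.14 to 0.21 and an adjusted p of 0.858. Both intervals lie under the whole interval of Cd5l, 2.35 to 3.67. Of the Csf1r exon bases, 15.1% are shared with Hmgxb3 on the other strand, which was level at 7.73 to 8.46 FPKM. In pregnant library 1, where the Kupffer cell genes were highest, Csf1r was still about as high as in non-pregnant library 1, at 37.7 against 34.7 FPKM. Which cells gave the Csf1r and Cd68 reads of the non-pregnant libraries was not tested.

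The remaining general genes were under 2 FPKM in every library. Spi1 was at 0.108 ± 0.0304 and 0.616 ± 0.342 FPKM, a ratio of 5.69. Aif1, the calcium-binding protein IBA1, was at 0.418 ± 0.127 and 1.54 ± 0.377 FPKM, and Cd86, a costimulatory ligand for T cells, at 0.0479 ± 0.0215 and 0.307 ± 0.145 FPKM (SD, n = 3 each). Itgam, the integrin chain CD11b found on many myeloid cells, had a ratio of 2.75, under that of every other member with separate groups except Cfp, from 0.0864 ± 0.0396 to 0.238 ± 0.0982 FPKM. These 4 had separate groups. Itgam shares 68.7% of its exon bases with a second annotated gene on the same strand, so its count is uncertain. Ms4a7, a membrane protein of many tissue macrophages, had the lowest mean of the 35: 1 fragment in the non-pregnant libraries and 5 in the pregnant ones, at 0.00784, 0 and 0 and then 0.00843, 0.0291 and 0 FPKM. Its depth-scaled ratio of 5.68 had a counting interval of 0.635 to 269, so no difference was detectable at this depth.

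All 5 Fc receptor and adaptor genes had separate groups, though only 2 were tested. Tyrobp, the adaptor DAP12 that signals for many myeloid receptors, had the largest ratio of means of the 35. It was at 0.209, 0.545 and 0.0426 FPKM in the non-pregnant and at 7.32, 4.37 and 2.19 FPKM in the pregnant libraries, a ratio of 17.4. The limma difference was 2.06 ± 0.323 (SE) with an adjusted p of 0.124. Fcer1g, the chain through which Fc receptors signal, was at 0.240, 1.40 and 0.0975 FPKM and then 2.62, 2.11 and 1.54 FPKM. Non-pregnant library 2 came close to pregnant library 3, and the limma difference of 1.04 ± 0.289 (SE) had an adjusted p of 0.295. Among the untested, the low-affinity IgG receptor gene Fcgr3 was at 0.0878 ± 0.0890 and 1.11 ± 0.593 FPKM and the high-affinity Fcgr1 at 0.0258 ± 0.0337 and 0.398 ± 0.172 FPKM (SD, n = 3 each). Fyb, an adaptor that links immune receptors to integrins, was at 0.136 ± 0.0873 and 0.795 ± 0.220 FPKM.

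Of the lysosome, phagosome and oxidase genes, Ctss rose, Lyz2 and Cybb were not called, and Slc11a1 was not tested. Ctss encodes cathepsin S, the protease that trims the invariant chain of MHC class II. Its levels were 0.617, 0.511 and 0.376 FPKM in the non-pregnant and 10.3, 8.15 and 3.96 FPKM in the pregnant libraries. All pregnant values were far above the tight non-pregnant ones. The ratio of means was 14.9, and the limma difference was 2.42 ± 0.272 (SE) with an adjusted p of 0.0357. Lyz2, lysozyme of myeloid cells, was at 0.849, 1.36 and 0.237 FPKM and then 12.4, 7.80 and 4.23 FPKM. Its limma difference of 2.28 ± 0.351 (SE) was almost that of Ctss, with an adjusted p of 0.124. Lyz2 has a close paralogue, Lyz1, and how the counting shared reads between them is not given in the sources used here. Cybb, the catalytic chain of the phagocyte NADPH oxidase, overlapped between groups at 1.81 ± 0.345 and 2.53 ± 0.760 FPKM (SD, n = 3 each), with an adjusted limma p of 0.435. Slc11a1, a metal transporter of the phagosome, was at 0.147 ± 0.0350 and 1.02 ± 0.323 FPKM with separate groups.

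The pan-leukocyte genes, which mark white blood cells of every kind, had the lowest sum of the role groups in pregnancy, 2.76 to 6.67 FPKM, and 1 tested member. Laptm5, a lysosomal protein of blood cells, was at 0.194, 0.288 and 0.0375 FPKM and then 2.87, 1.75 and 1.06 FPKM. Its groups were separate and the limma difference was 1.26 ± 0.222 (SE), with an adjusted p of 0.184. Ptprc, which encodes CD45 and has the second lowest mean of the 35, was at 0.0229, 0.0307 and 0.0124 FPKM in the non-pregnant and at 0.410, 0.254 and 0.125 FPKM in the pregnant libraries. From 37 and 402 fragments its depth-scaled ratio was 12.3, with a counting interval of 8.80 to 17.8. Coro1a, an actin regulator of leukocytes, had a ratio of 9.57 with separate groups. Lcp1 and Hcls1, which bundle and signal to actin in leukocytes, overlapped: Lcp1 was at 0.386, 0.880 and 0.338 and then 1.26, 0.899 and 0.678 FPKM, and Hcls1 at 0.387, 0.917 and 0.292 and then 1.14, 0.910 and 0.641 FPKM. In both, non-pregnant library 2 was the one that reached the pregnant values.

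**Figure D2:**
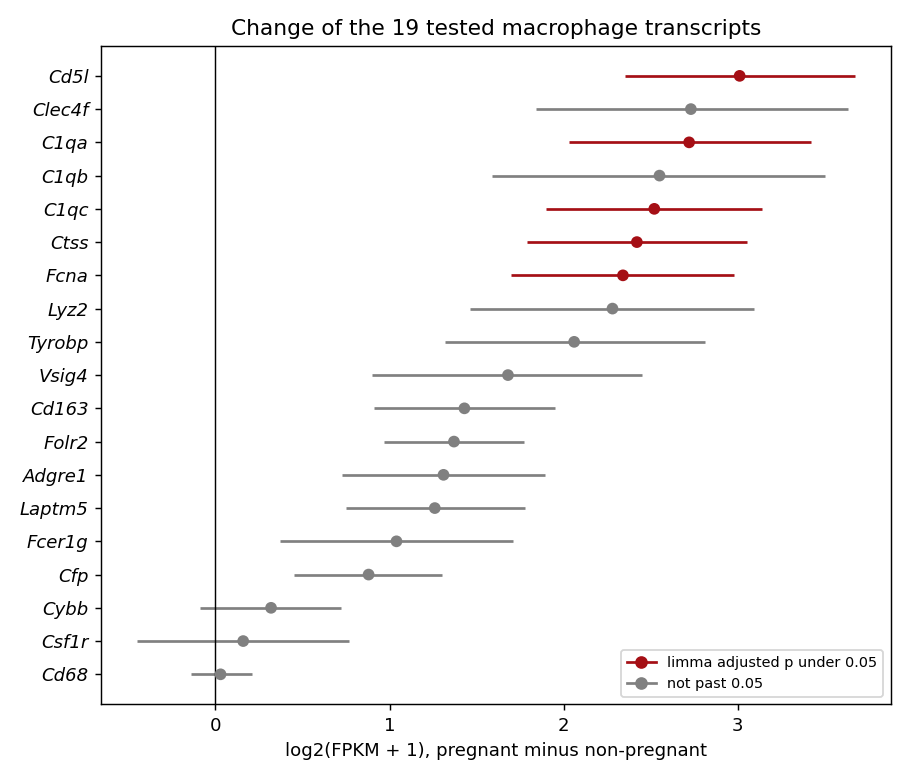
Difference in log2(FPKM + 1), pregnant minus non-pregnant, of the 19 tested macrophage transcripts, with points for the limma estimate, lines for its 95% interval and red for an adjusted p under 0.05. The intervals of Cybb, Csf1r and Cd68 include 0 and those of the other 16 lie above it, with Cd5l the highest at 3.01.

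The 3 pregnant libraries differed among themselves, and most members did so together. In 32 of the 35, pregnant library 1 was above library 2 and library 2 above library 3, an order held by 20.2% of genes above 0 in all 3. Among the tested it was 18 of 19, against 20.4% of all tested genes. The exceptions were Msr1, Cd68 and Ms4a7. Pregnant library 3 was the lowest pregnant one for 34 of the 35, against 38.5% of all tested genes, and pregnant library 1 was the highest of all 6 libraries for 31. The summed level of the 35 was 248, 202 and 138 FPKM in pregnant libraries 1 to 3 and 92.2, 105 and 64.5 FPKM in the non-pregnant ones. Cd68 and Csf1r make up most of the non-pregnant sums. Without them, a choice made after their values were seen, the sums were 172, 128 and 67.9 FPKM in pregnancy and 17.1, 23.0 and 9.43 FPKM without it.

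The size of the step between pregnant libraries was measured for the 34 members with at least 20 fragments in each pair of libraries, which leaves out Ms4a7. Library 2 over library 1 had a median ratio of 0.750 (quartiles 0.672 and 0.819). Library 3 over library 1 had a median of 0.396 (quartiles 0.317 and 0.533), and library 3 over library 2 one of 0.530. Over all genes these medians were 0.995, 0.996 and 0.996. The ratio of library 3 over library 1 was under 0.5 for 22 of the 34, against 2.12% of all genes with as many fragments. Library 3 over library 2 was under 0.5 for 13 of the 34, against 1.98%, and library 2 over library 1 for 0, against 1.22%. The 95% counting interval of library 3 over library 1 lay under 1 for all of the 34 except Cd68, at 1.06 (0.976 to 1.14). Between libraries 1 and 2 the interval lay under 1 for 20, included 1 for 13 and lay above 1 for Msr1, at 1.36 (1.06 to 1.76).

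Most members, but not all, had a counting interval that included the members' own median ratio. It was 26 of 34 in library 2 over 1, 23 in library 3 over 1 and 24 in library 3 over 2. Intervals widen as fragments fall, so members with few fragments can include the median at many ratios. These counts therefore do not establish a single factor. Csf1r, Cd68, Cd5l and Clec4f, which had the most fragments, all had intervals that missed the median in library 3 over 1. In library 3 over 1, the intervals of 2 members lay under the median: C1qb at 0.302 (0.249 to 0.364) and Clec4f at 0.328 (0.291 to 0.369). The intervals of 9 lay above it: Cd5l at 0.462, Cfp at 0.532, Cybb at 0.534, Lcp1 at 0.538, Fyb at 0.564, Aif1 at 0.631, Msr1 at 0.718, Csf1r at 0.793 and Cd68 at 1.06. Cd5l and Clec4f, both Kupffer cell genes with many fragments, differed here, since the Cd5l interval of 0.414 to 0.515 does not meet that of Clec4f. The intervals cover counting error of these libraries only.

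Vsig4, Marco and Fcna had library 2 over 1 ratios of 0.983, 0.980 and 0.932, above the median, which the interval of Marco included. In library 3 over 1 the ratios of Vsig4 and Marco were 0.307 and 0.299 and that of Fcna was 0.443, and all 3 intervals included the median. In library 3 over 2 the interval of Vsig4 was 0.228 to 0.420 around 0.312 and that of Marco 0.192 to 0.469 around 0.305, both under the median of 0.530, while the Fcna interval of 0.393 to 0.572 included it. In the other direction, Lyz2, C1qb and Laptm5 were low in library 2 over 1, with ratios of 0.630, 0.649 and 0.609 and intervals wholly under the median of 0.750.

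**Figure D3:**
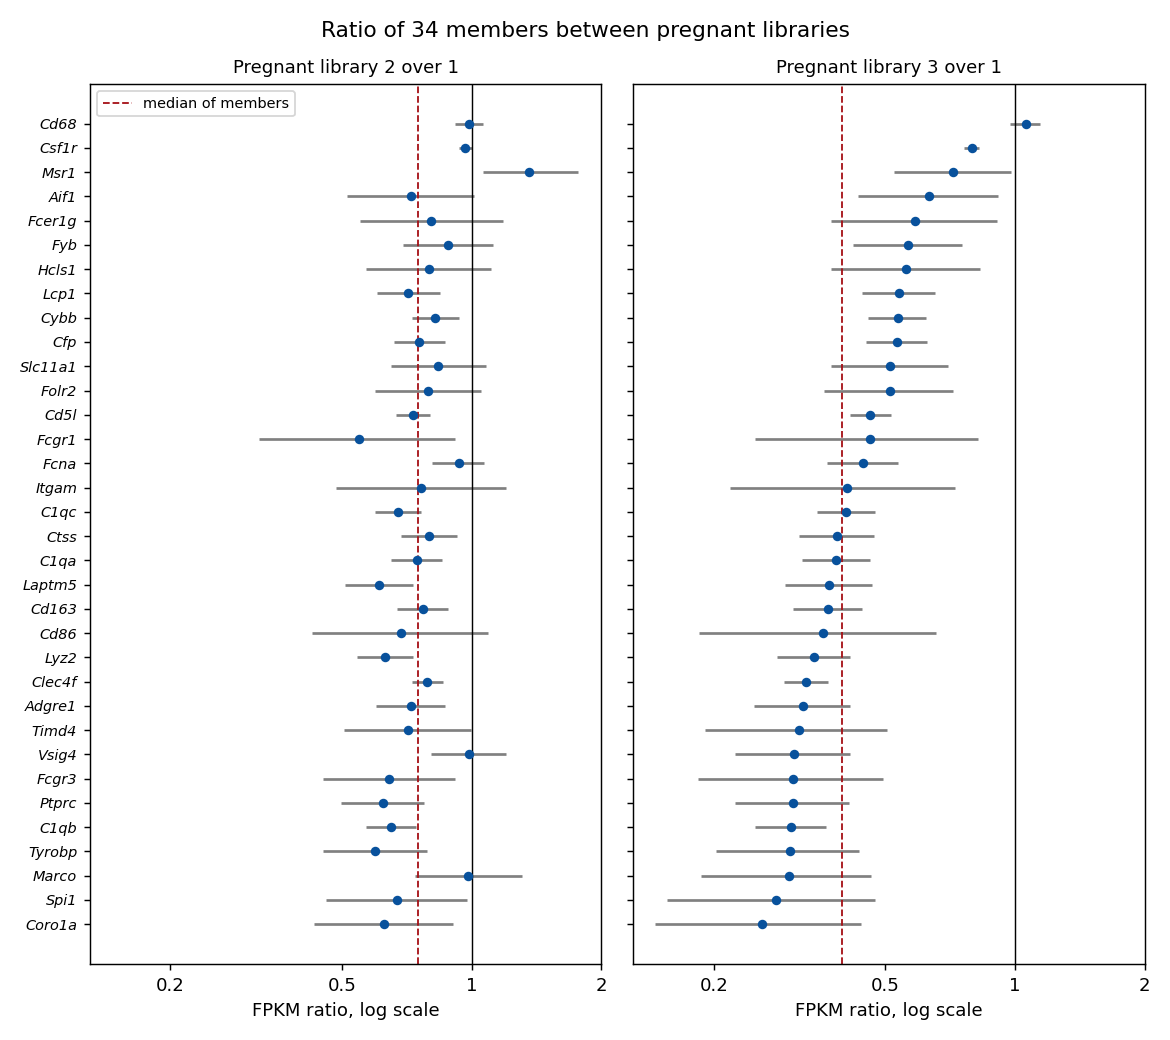
FPKM ratio of pregnant library 2 over 1 (left) and 3 over 1 (right) on a log axis for the 34 macrophage transcripts with at least 20 fragments, with 95% counting intervals as lines, the members' median dashed and a solid line at 1. The left median is 0.750 and the right one 0.396, with Cd68, Csf1r and Msr1 at the top on the right and Coro1a, at 0.259, at the bottom.

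Members with a smaller difference between groups also differed less between pregnant libraries. Library 3 over 1 had a median of 0.350 (0.259 to 0.564) in the 24 members with a ratio of group means above 5 and of 0.573 (0.407 to 1.06) in the 10 others, a split made after the values were seen and not tested. When the non-pregnant mean was first subtracted from each library, the 28 members with separate groups had a median ratio of 0.293 in library 3 over 1, with Cfp at 0.270, C1qa at 0.353 and Cd5l at 0.437. On that measure Cfp came below C1qa and Cd5l, while on the plain ratio it was above both.

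The non-pregnant libraries had an order of their own. Library 3 was the lowest non-pregnant one for 31 of the 35, against 36.5% of tested genes, and library 2 the highest for 24, against 32.7%. The median of library 3 over library 1 was 0.547 over the 24 members with enough fragments, and that of library 2 over library 1 was 1.40 over 25. Fcer1g and Msr1 stood out, at 5.84 (2.44 to 16.9) and 5.11 (3.60 to 7.43) in library 2 over 1, followed by Hcls1 at 2.37, Lcp1 at 2.28 and Cd163 at 2.23. Non-pregnant library 2 also held more transcripts of sinusoidal and vascular endothelium, the lining of liver blood vessels. All 12 of these markers were tested and 0 were called either way in limma (0 at an unadjusted p under 0.05). They summed to 332 FPKM in non-pregnant library 2, against 51.6 and 28.7 FPKM in libraries 1 and 3 and 28.9 to 41.5 FPKM in the pregnant libraries. The endothelial receptor gene Gpr182 was at 20.5 FPKM there and at 3.01 to 4.64 FPKM in the other libraries. The part of endothelial RNA in the values of Fcer1g, Msr1, Hcls1 and Lcp1 was not tested.

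Markers of other white blood cells were low throughout. Their counts of genes with all pregnant libraries above the non-pregnant ones stand beside 10.7% of all genes above 0 in at least 1 library. The 9 natural killer cell markers were all untested and had a sum of 0.139 to 0.225 FPKM without pregnancy and of 1.96, 0.894 and 0.654 FPKM in pregnant libraries 1 to 3, with separate groups in 5 of 9. The 10 T cell markers summed to 1.87 to 2.43 and 2.42 to 3.20 FPKM, mostly from the kinase gene Lck, and 2 of 10 had separate groups. The 7 B cell markers in the table summed to 1.56 to 2.16 and 2.71 to 3.23 FPKM, with Cd79a at 1.45 to 2.60 FPKM the main one and 4 of 7 separate. The 9 neutrophil markers summed to 0.284 to 0.460 and 0.353 to 1.14 FPKM, with Ly6g and Mmp8 at 0 in all 6 libraries and 1 of 9 separate. The 7 monocyte markers summed to 1.79 to 4.04 and 2.59 to 3.60 FPKM, nearly all from Plac8, and 4 of 7 were separate. Ly6c2, which marks classical monocytes, was at 0 in the non-pregnant and at 0.0685, 0.154 and 0.0865 FPKM in the pregnant libraries. The conventional dendritic cell markers summed to 2.90 to 5.15 and 3.28 to 3.94 FPKM, with 1 of 6 separate. The plasmacytoid ones summed to at most 0.684 FPKM, with 2 of 4 separate. The NK, T, B, neutrophil and monocyte sums put the pregnant libraries in the same order as the macrophage sums, library 1 highest and library 3 lowest. Their part in the pan-leukocyte and Fc receptor values was not tested. In pregnant libraries 1 to 3 the pan-leukocyte members summed to 6.67, 4.43 and 2.76 FPKM and the Fc receptor and adaptor members to 13.2, 8.76 and 5.08 FPKM.

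The 7 erythroid markers, none of which was tested or had separate groups, summed to 0.0647, 0.156 and 0.0639 FPKM in the non-pregnant and to 1.05, 0.312 and 0.113 FPKM in the pregnant libraries. Pregnant libraries 1 and 2 were thus above all non-pregnant ones, and the order of the pregnant libraries was that of the macrophage sums. These sums rest on few fragments. Hbb-bs, a globin gene, had 11, 3 and 0 in pregnant libraries 1 to 3 and 0 in the non-pregnant ones. Slc4a1 had 28, 28 and 12 in pregnancy and 5, 15 and 11 without it. The 8 hepatocyte markers had a lower sum in pregnancy, at 2850, 2694 and 2489 FPKM in pregnant libraries 1 to 3 against 2884 to 3611 FPKM. Most of that sum was Alb, whose groups overlapped, with an adjusted limma p of 0.754. Groups were separate and lower in pregnancy for 2 of the 8, Ahsg and Ttr, as for 9.30% of all genes above 0 in at least 1 library. Limma called 1 of the 8 lower, where 0.0263% of tested genes were. This was Ahsg, a plasma protein gene, with a limma adjusted p of 0.0368, which ran from 0.00170 to 0.239 over the alternatives. It was over 0.05 with each library left out in turn except non-pregnant library 2. The same held with limma-voom, with no filter and with the replicate number as a block. Stellate cell and fibroblast markers summed to 36.9 to 42.7 FPKM over the 6 libraries, mostly from Rgs5. Of these 9 markers, 2 had separate groups lower in pregnancy, Dcn and Reln, with adjusted limma p-values of 0.301 and 0.335. Platelet markers summed to 1.56 to 2.63 FPKM. Of the 4 mast cell and basophil markers, Cpa3, Mcpt8 and Ms4a2 were at 0 in every library.

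**Figure D4:**
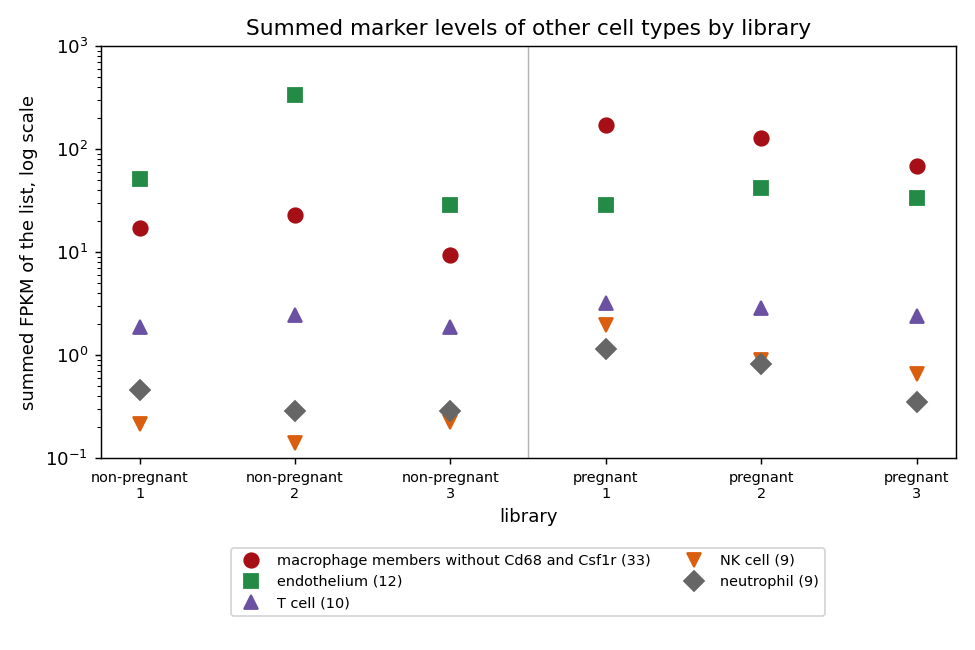
Summed FPKM of marker lists on a log axis in each of the 6 libraries, for the 33 macrophage members without Cd68 and Csf1r and for markers of endothelium, T cells, NK cells and neutrophils. The macrophage sum is between 67.9 and 172 in pregnancy and between 9.43 and 23.0 without it, and the endothelial sum reaches 332 in non-pregnant library 2.

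A wider list of 84 Kupffer cell, macrophage and myeloid genes outside the 35 was also examined. Of these, 82 were in the table and 40 were tested, and limma called 0 of them in either direction, with 10 at an unadjusted p under 0.05 higher and 2 lower (7.09% and 6.30% of all tested genes). With non-pregnant library 2 left out, 3 were called higher. Limma-voom on the recovered fragments also called 0. The pregnant libraries were all above the non-pregnant ones in 37 of the 82 and all below in 2. Over all genes the shares were 10.7% and 9.30%. The median difference was 0.20, with 59 of the 82 above 0 and 23 below. The 2 with separate lower groups were Maf, at 7.75 ± 3.52 and 3.90 ± 0.550 FPKM, and Ptgs1, at 6.73 ± 0.911 and 5.22 ± 0.708 FPKM (SD, n = 3 each). Their adjusted limma p-values were 0.301 and 0.344. The lists were not tested against each other. The order of pregnant libraries 1, 2 and 3 held in 50 of the 82, against 20.2% of genes above 0 in all 3.

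Among the other Kupffer cell genes, Hmox1, which breaks down haem, had the smallest p, at 2.60 ± 0.281 and 4.88 ± 0.535 FPKM with an adjusted limma p of 0.0854. Axl, a receptor tyrosine kinase for dying cells, was at 0.634 ± 0.155 and 2.54 ± 0.832 FPKM (SD, n = 3 each) with an adjusted limma p of 0.124. Sdc3, a syndecan, and Il18bp, which traps interleukin 18, had adjusted limma p-values of 0.281 and 0.295. Siglec1, the sialic acid receptor CD169, and the complement gene C6 were too low to test and are named after their values were seen: Siglec1 was at 0.137, 0.0833 and 0.0716 and then 2.69, 1.89 and 0.968 FPKM, and C6 at 0.147, 0.0837 and 0.0799 and then 2.14, 1.98 and 0.689 FPKM. Both held the order of the pregnant libraries that most members held. Of the 25 other Kupffer cell genes, 16 had a log2 difference above 0 and 9 below. The lowest was Cd38 at -0.45, with an adjusted limma p of 0.614.

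Of the wider myeloid genes, Ctsc, Pld4, Mpeg1 and Unc93b1, which act in lysosomes and endosomes, had the smallest p-values. Mpeg1, the pore protein perforin 2, was at 3.91 ± 0.995 and 7.73 ± 1.92 FPKM (SD, n = 3 each) with an adjusted limma p of 0.279. The adjusted limma p was 0.191 for Ctsc, 0.243 for Pld4 and 0.290 for Unc93b1. Of the 57 wider myeloid genes in the table, 43 had a log2 difference above 0 and 14 below. The lowest was Fcgr2b at -1.31, with 23.6 FPKM in non-pregnant library 2 and an adjusted limma p of 0.436. Apoe, Ctsb, Ctsd, Cst3 and Grn, which many liver cells express besides macrophages and which are named here after their values were seen, had log2 differences of -0.09 to 0.01. Of the factors that maintain macrophages, Csf1, the ligand of Csf1r, was at 2.58, 4.92 and 2.69 FPKM in the non-pregnant and at 5.68, 5.06 and 7.94 FPKM in the pregnant libraries. Its lowest pregnant library was just above its highest non-pregnant one, and the adjusted limma p was 0.301. Il34, the other ligand, was at 2.58 ± 0.922 and 4.0 ± 1.1 FPKM with an adjusted limma p of 0.386. The Notch ligands Dll1 and Dll4 had adjusted limma p-values of 0.574 and 0.708, and Csf2 was at 0 in all 6 libraries.

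To see which other genes followed the members, each tested gene's profile over the 6 libraries was centred, scaled by its own SD and set against the median profile of the 19 tested members. The measure is the root mean square distance over 6 libraries, and it uses the members' own values, so it carries no test. Members held ranks 1 to 4 and 6 to 14 of 11412, with Vsig4 at 17 and Cfp at 19. Fcer1g was at rank 179, Cybb at 492, Csf1r at 2936 and Cd68 at 4125. The nearest gene outside the 35 was Axl, at rank 5 with a distance of 0.0783. Others near it were Ifi47, Ier3, Dcaf12l1, Serpina6, Spa17, Tspan3, Bex2 and A1bg, at distances of 0.159 to 0.214. Their profiles were alike in shape but not in size: Ifi47, an interferon-induced GTPase gene, was at 5.22 ± 0.70 and 8.29 ± 0.76 FPKM (SD, n = 3 each), a ratio of 1.59, and Tspan3 had a ratio of 1.13. A1bg, a plasma glycoprotein gene, was at 0.0145, 0.0413 and 0.0118 FPKM in the non-pregnant and at 4.21, 5.21 and 2.30 FPKM in the pregnant libraries, with its highest value in pregnant library 2.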

How the data were processed

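The authors deposited FPKM values for 21700 genes in 6 libraries of sorted biliary cells, 1 column per sample. Mouse build mm10 and the tools STAR 2.7.9a, cutadapt 3.4, DESeq2 1.30.1 and HTSeq 0.13.5 are listed in the submitters' processing notes with no role given, and the strand setting of the counting is not given in the sources used here. FPKM divides by the library total, so a few abundant genes can shift all others slightly: the median log2 difference over all tested genes was -0.02, and -0.04 to -0.01 under other scalings.

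FPKM times the union exon length of GENCODE vM21 was a whole multiple of 1 step per library, within 0.01, for 98.5% of values above 0 (28 genes had no length), which gave recovered fragments of 25047887 to 35083751 per library. Counting intervals (95%, exact Clopper-Pearson) were made from these, cover counting error only, and treat fragments without molecular identifiers as independent molecules.

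Groups came from the sample titles. Genes whose mean reached 1 FPKM were tested as log2(FPKM + 1), a pseudocount of 1, with limma 3.58.1 (trended empirical Bayes, two-sided) in R 4.3.3 and Benjamini-Hochberg adjustment at 0.05. Python 3.11.15 with pandas 2.3.3, scipy 1.17.1 and matplotlib 3.10.9 gave the ratios, lists and figures. The fit was tested on simulated data in which every gene had the same spread setting, unlike these data. There 100% of the changed genes were recovered, and 9.09% of the calls at an adjusted limma p under 0.05 were false. Scaling between pregnant libraries was described by FPKM ratios without a test.

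The 35 members and all lists were chosen with earlier results of these data known. All members are named. Given in full are those called, the 2 with the smallest p in each of 6 role groups, and the 2 highest and 2 lowest in mean. Other lists give up to 4 genes with the smallest p, and the 10 genes nearest in profile are named, except 1 that is not reported here. Promoters came from RefSeq (GRCm38.p6), matched by symbol. The alternatives were other pseudocounts, filters, scalings, model settings and each library left out. Limma-voom on at least 30 fragments and the ratio after subtracting the non-pregnant mean were added after seeing the data.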

Additional observations from a re-analysis of the deposited data

How the results depend on the processing

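The direction of the 19 tested members held under every alternative tried except for Csf1r (-0.17 without non-pregnant replicate 3) and Cd68 (-0.05 with array weights, -0.01 without non-pregnant replicate 3). The count of members called higher did not hold. Against 5 of 19 in limma, it was 16 with array weights, 0 with robust empirical Bayes, 0 with limma-voom on recovered fragments, 0 of 34 with limma-voom on at least 30 fragments (added after seeing the data; 29 at an unadjusted p under 0.05) and 0 of 35 with no filter (28 unadjusted). Leaving out 1 library at a time gave 0 to 12. The adjusted p of Cd5l over these alternatives ran from 0.00105 to 0.239, and those of C1qa, C1qc, Ctss and Fcna reached 0.266. With the replicate number as a block the count of members called higher was 10. Deviations from the group mean had correlations of 0.068, 0.019 and -0.138 between same-numbered libraries. Over all pairs of a non-pregnant and a pregnant library they ran from -0.152 to 0.103. Values this close to 0 cannot decide whether the numbers pair the samples. The description of non-pregnant replicate 3 in the labels also gives another number than its title, and the title's number was used. The count of other macrophage genes called higher, 0, became 11 with array weights and 0 to 3 with 1 library left out, and the count called lower became 1 with array weights. The median difference of members, 0.88, was 2.20 with a pseudocount of 0.1, 1.81 on TPM and 1.68 over members with a mean of at least 1 FPKM. The median ratios of pregnant libraries 2 over 1, 3 over 1 and 3 over 2 became 0.815, 0.558 and 0.685 as ratios of summed FPKM, which Cd68 and Csf1r weigh on, and 0.686, 0.293 and 0.443 after subtracting the non-pregnant mean (28 members, added after seeing the data). Over members with at least 100 fragments, the plain median ratio of pregnant library 3 over 2, without that subtraction, was 0.573. It was 0.530 in the main setting. Of the members with a mean of at least 1 FPKM, 18 of 19 kept the order of the pregnant libraries. Among other named genes the sign changed for Itga2b (0.01 without pregnant replicate 1), Spp1 (-0.00 with quantile normalisation), Plac8 (-0.30 with array weights, and -0.13, -0.00 and -0.05 without non-pregnant replicate 2, non-pregnant replicate 3 and pregnant replicate 1), Zbtb46 (0.06 with array weights, 0.02 without non-pregnant replicate 2) and Dll4 (0.21 without non-pregnant replicate 2). With 1 library left out at a time, these ranged from -0.17 to 0.41 for Csf1r, -0.01 to 0.07 for Cd68, -0.11 to 0.01 for Itga2b, -0.13 to 0.30 for Plac8, -0.28 to 0.02 for Zbtb46 and -0.64 to 0.21 for Dll4. The cause of these shifts was not tested. With 3 libraries a group and as few as 1 fragment for the lowest members, depth limits Ms4a7, Fcgr1 and Cd86 most.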
